A study of Rattus norvegicus with 18 samples.

Results

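Dcx, Sox11, Sox4, Neurod1, Igfbpl1, Eomes, Draxin, Stmn1, Mki67 and Top2a are genes of adult neurogenesis and of immature neurons. They were taken by symbol from a table of read counts for the rat hippocampus. Of the 10 genes, 8 were among the 17455 symbols of the table, and all 8 were expressed highly enough to be tested, as were 13338 genes in all. Eomes and Draxin were not listed under those symbols and were not analysed here.

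The rats were adult Sprague-Dawley males of 170 to 280 g, and RNA of the left hippocampus was sequenced in 2 models of acquired epilepsy. In the kainic acid (KA) model, electrodes were implanted and systemic kainic acid, a glutamate receptor agonist, was given in increments until status epilepticus. In the kindling (KI) model, electrodes in the hippocampus delivered repeated stimulation until the rats were fully kindled. In both models the tissue was taken 24 hours after the last seizure. The groups were KA sham (7 libraries), KA 3 Class V (3 libraries), KI sham (4 libraries) and KI 3 Class V (4 libraries), all of 1 strain and sex. Each model had its own shams, and the sources used here explain neither what a sham received nor what 3 Class V stands for. Every library was a bulk extract of the dissected tissue, so fewer cells of a type and less RNA per cell cannot be told apart.

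In the dentate gyrus of the hippocampus, radial glia-like stem cells divide and give rise to intermediate progenitors, then to neuroblasts, and finally to granule neurons that join the existing circuit. Mki67, a protein of the chromosome surface in dividing cells, and Top2a, the topoisomerase that untangles replicated DNA, mark cells in cycle. Igfbpl1, a secreted protein of the insulin-like growth factor binding family, Neurod1, a basic helix-loop-helix transcription factor, and Dcx, the microtubule-binding doublecortin, mark neuroblasts and young neurons. Sox11 and Sox4 are related transcription factors of newborn neurons, and Stmn1 (stathmin) destabilises microtubules and is also made by mature neurons. Seizures are known to alter the birth and survival of these cells in rodents.

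The stretches around the start sites of 4 of the genes are shown because the genes form the pairs whose levels followed each other most closely across the libraries, Mki67 with Top2a and Dcx with Neurod1. Of the 8 genes measured, 7 had an entry in the RefSeq table of promoters for the rat assembly GRCr8, and Sox4 had none. Each entry holds 250 bases before and 50 after the start site, printed 5′ to 3′ on the strand of the gene. In the Mki67 and Top2a stretches, capitals mark 3 motifs, each searched on both strands. They are the CCAAT box, whose name gives its letters, the core of the cell-cycle homology region, which is TTTGAA, and a variant of that core. CCAAT boxes and this core are known elements of genes that are switched on late in the cell cycle.
Mki67 lies on chr1:199952544-199952843, minus strand.
Mki67: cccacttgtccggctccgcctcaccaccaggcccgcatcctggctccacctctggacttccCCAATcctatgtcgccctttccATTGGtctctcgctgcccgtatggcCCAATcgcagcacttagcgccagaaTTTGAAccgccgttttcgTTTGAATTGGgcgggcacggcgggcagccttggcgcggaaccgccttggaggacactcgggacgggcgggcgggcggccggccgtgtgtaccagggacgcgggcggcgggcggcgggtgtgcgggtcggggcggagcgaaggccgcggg
Top2a lies on chr10:84473044-84473343, minus strand.
Top2a: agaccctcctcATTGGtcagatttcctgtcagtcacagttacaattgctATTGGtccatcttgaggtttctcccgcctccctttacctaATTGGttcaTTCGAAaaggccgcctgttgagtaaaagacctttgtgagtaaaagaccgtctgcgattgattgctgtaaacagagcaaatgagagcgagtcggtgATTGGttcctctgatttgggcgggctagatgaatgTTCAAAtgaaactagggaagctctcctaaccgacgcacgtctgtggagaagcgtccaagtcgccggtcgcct

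The Mki67 stretch held 4 CCAAT boxes, at bases -189, -167, -142 and -94, and 2 cores, at -117 and -99. Positions give the first base of a match, counted back from the start site. The core at -99 shares its last base with the CCAAT box at -94. The Top2a stretch also held 4 CCAAT boxes, at -239, -201, -161 and -57, with a core at -22 and the variant, TTCGAA, at -152. Of 33469 promoters of the same length in the table, 37.5% held a CCAAT box, 18.3% the core and 1.69% the variant. Only 0.675% held 4 or more CCAAT boxes, and 0.12% held 4 or more together with a core. These matches describe letters and not sites in use.

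In the Neurod1 and Dcx stretches, capitals mark the E-box CANNTG, the sequence that basic helix-loop-helix factors such as Neurod1 bind.
Neurod1 lies on chr3:84770405-84770704, minus strand.
Neurod1: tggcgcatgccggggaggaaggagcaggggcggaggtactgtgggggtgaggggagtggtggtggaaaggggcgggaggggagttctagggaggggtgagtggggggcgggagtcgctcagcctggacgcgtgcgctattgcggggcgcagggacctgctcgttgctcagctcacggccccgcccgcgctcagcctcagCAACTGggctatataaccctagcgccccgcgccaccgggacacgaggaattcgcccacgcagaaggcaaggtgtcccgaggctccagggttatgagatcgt
Dcx lies on chrX:112304112-112304411, minus strand.
Dcx: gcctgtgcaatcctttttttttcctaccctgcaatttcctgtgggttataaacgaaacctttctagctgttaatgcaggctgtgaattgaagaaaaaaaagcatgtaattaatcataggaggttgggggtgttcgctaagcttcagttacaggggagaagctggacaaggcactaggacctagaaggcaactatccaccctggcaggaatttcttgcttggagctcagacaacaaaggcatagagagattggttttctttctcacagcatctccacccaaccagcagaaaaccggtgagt
The Neurod1 stretch held 1 E-box, at -51, and the Dcx stretch held none. An E-box was present in 72.1% of all promoters in the table.

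Levels are given as CPM, counts scaled to a common library size, and changes as log2 fold changes with their standard error (SE) from edgeR's quasi-likelihood test. A gene was called where its p-value, adjusted by the Benjamini-Hochberg method over all 13338 genes, was under 0.05. Libraries held between 30925368 and 49943021 counts. The rarest of the genes, Top2a, was counted between 44 and 332 times per library and the most counted, Stmn1, between 6085 and 15950 times. Several libraries stood apart. Genes resembling ribosomal RNA took 9.67% to 16.4% of the counts in KA sham 4, KI sham 2 and KI 3 Class V 1, and 0.571% to 2.0% in the other 15. Markers of choroid plexus and ependyma were highest in KI sham 4, with a sum of 1407 CPM, then in KA sham 3, with 844 CPM, and summed to 133 to 240 CPM elsewhere. Markers of mature granule cells, the neurons of the dentate gyrus, were present in every library at 348 to 799 CPM. They summed to 451 to 576 CPM in KI sham and to 532 to 799 CPM in KI 3 Class V. In KA they summed to 348 to 721 CPM in the shams and to 473 to 542 CPM in 3 Class V. Of 9 tested in KI, 6 had positive changes, and 2, C1ql2 and Plk5, were called lower, where 5.25% of all genes were. Their part in the results was not tested.

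After kindling, Sox4 fell, and it was the only one of the 8 genes called in either model by edgeR. Dcx, with a log2 change of 0.54, and Stmn1, with -0.54, did not pass the test in KI, and in the KA model no gene passed. Of all genes tested, 9.99% were called in the KI comparison (5.25% lower), so 1 called gene of 8 is near the background. The 1332 genes called there split into 632 higher and 700 lower. The split was 333 to 978 with upper quartile factors and 428 to 761 without the genes resembling ribosomal RNA. The groups did not overlap for 1 of the 8 genes in KI and for none in KA, against 20.2% and 5.65% of all genes. In the KA comparison 0 of the 8 genes were called, where 0.172% of all genes were. The median log2 change of the 8 genes was 0.30 in KI, against -0.04 over all genes, and 0.00 in KA, against -0.01. The plot of log2 changes sets the 2 models beside each other.

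**Figure D1:**
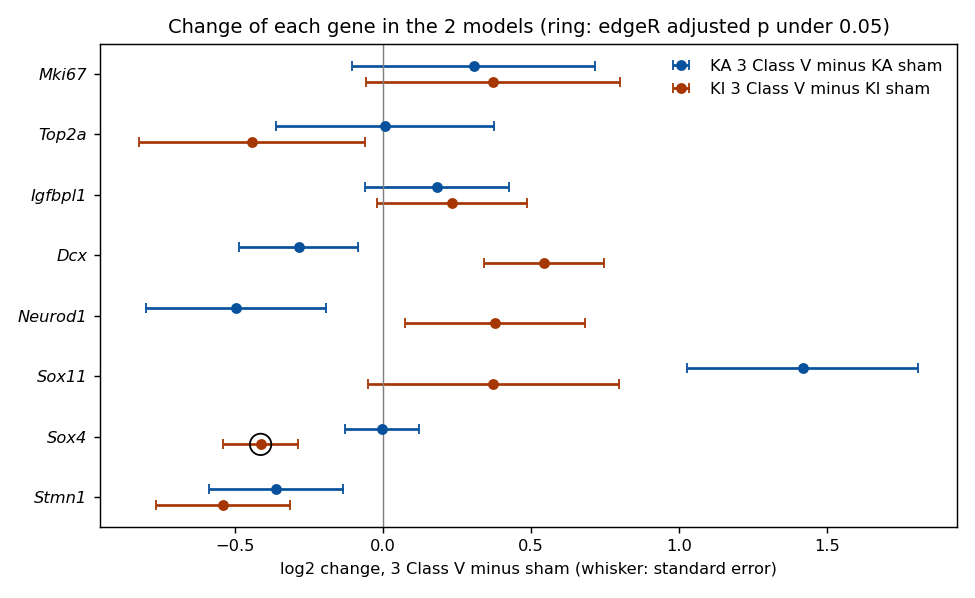
Log2 change of the 8 genes (x axis, whiskers are the SE) in KA 3 Class V against KA sham and in KI 3 Class V against KI sham, with a ring around a change that edgeR called. Only Sox4 in KI is ringed, at -0.41, and the KA point of Sox11, at 1.42, has the largest size.

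Among the markers of dividing cells, Mki67 stood at 3.64 to 11.5 CPM in the 7 KA shams, with a median of 7.19 CPM. The KA 3 Class V libraries held 8.59, 9.67 and 8.36 CPM. The KI shams held 3.60, 4.43, 7.62 and 16.6 CPM, and the KI 3 Class V libraries 9.89, 15.4, 11.1 and 5.48 CPM. The KI shams thus spanned the whole KI 3 Class V range, with KI sham 4 the highest library of all. The log2 change of Mki67 was 0.31 ± 0.41 in KA (SE, edgeR adjusted p = 0.852) and 0.37 ± 0.43 in KI (edgeR adjusted p = 0.535). Without KI sham 4, which was also the library richest in choroid plexus and ependyma markers, the KI value was 0.97 (edgeR adjusted p = 0.0636). Without KI sham 3 and 4 it was 1.36 (edgeR adjusted p = 0.0314), where 3740 of all genes were called. These were the KI shams with the most Mki67, so leaving them out could only raise the change. The KI value was 0.12 without KI 3 Class V 2 (edgeR adjusted p = 0.864) and 0.13 without KI sham 1 (edgeR adjusted p = 0.853). What the markers of choroid plexus and ependyma contribute was not tested.

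Top2a was low throughout, at 1.95 to 4.37 CPM in the KA shams, with a median of 3.12 CPM. It stood at 2.31, 4.13 and 3.26 CPM in KA 3 Class V. It stood at 1.52, 2.77, 3.24 and 7.77 CPM in the KI shams and at 3.53, 3.43, 2.67 and 1.70 CPM in KI 3 Class V. As with Mki67, KI sham 1 was the lowest library and KI sham 4 the highest, and the groups overlapped in both models. The log2 change was 0.01 ± 0.37 in KA (SE, edgeR adjusted p = 0.998) and -0.44 ± 0.38 in KI (edgeR adjusted p = 0.398). Without KI sham 4 the KI value was 0.13, on the other side of 0.

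**Figure D2:**
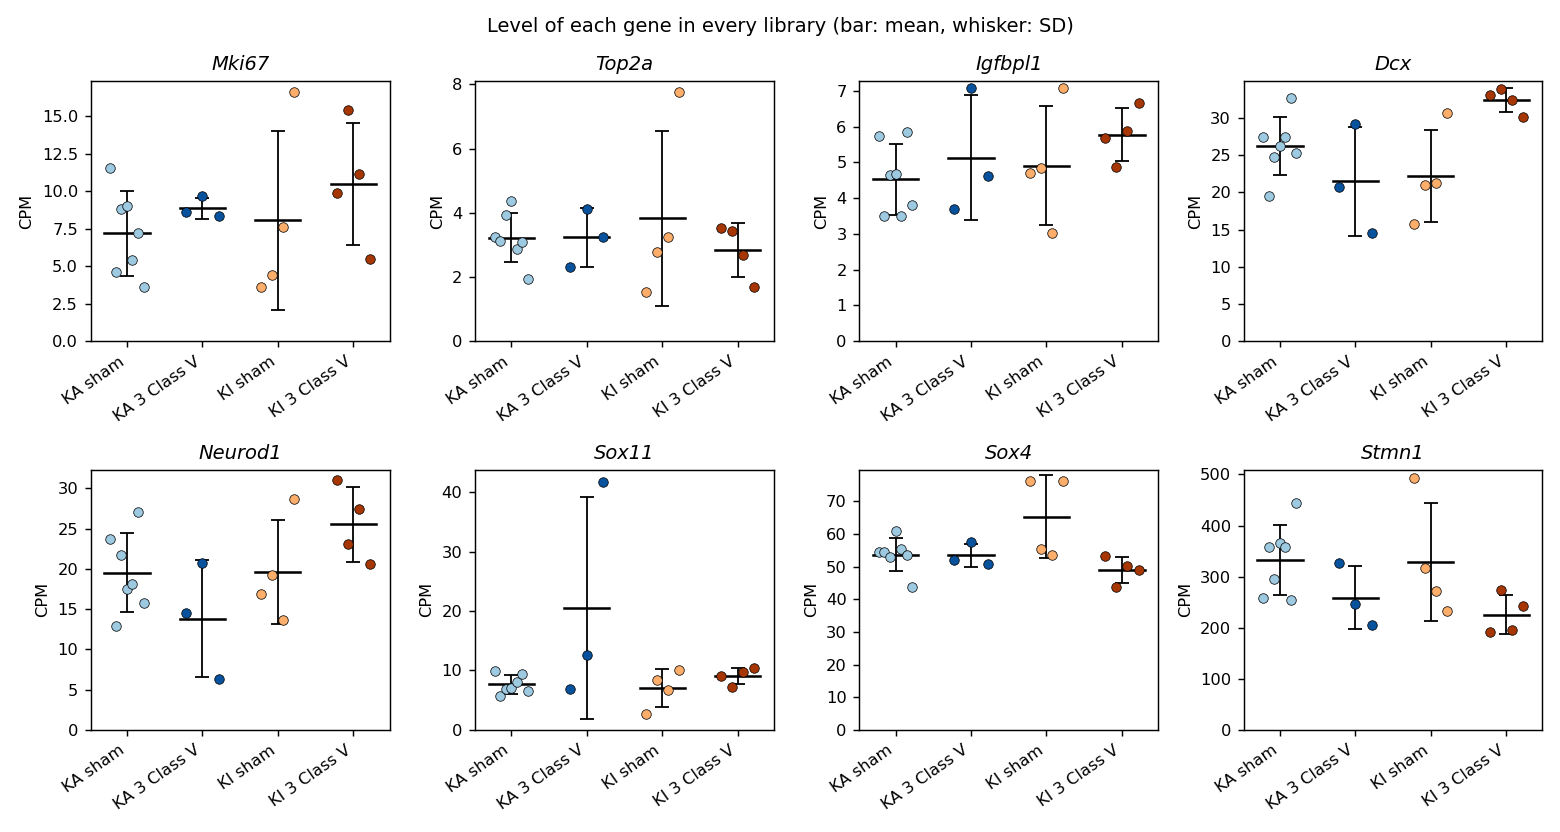
CPM of each gene in every library (points), by group, with the group mean (bar) and SD (whisker). Sox4 is the only gene whose KI 3 Class V libraries, at 43.7 to 53.3 CPM, all lie below the KI shams, at 53.5 to 76.4 CPM, and 1 KA 3 Class V library holds Sox11 at 41.8 CPM.

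Of the genes of neuroblasts and young neurons, Dcx stood at 19.6 to 32.6 CPM in the KA shams, with a median of 26.3 CPM. The KA 3 Class V libraries held 20.6, 29.1 and 14.6 CPM. The KI shams held 15.8, 21, 21.2 and 30.7 CPM, and the KI 3 Class V libraries 33.0, 33.8, 32.4 and 30.1 CPM. In order of mean level the groups were KI 3 Class V (32.3 ± 1.60 CPM, SD), KA sham (26.2 ± 3.90), KI sham (22.2 ± 6.21) and KA 3 Class V (21.4 ± 7.33). KI 3 Class V was tight and high, with its lowest library just under KI sham 4, while the other groups overlapped widely. The log2 change was 0.54 ± 0.20 in KI (SE, edgeR adjusted p = 0.0769) and -0.29 ± 0.20 in KA (edgeR adjusted p = 0.663).

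The KI result for Dcx lay close to the threshold and moved across it with the method and the libraries. DESeq2 called Dcx (adjusted p = 0.0483), as did limma-voom (adjusted p = 0.00161). Leaving out KI sham 4 gave 0.71 (edgeR adjusted p = 0.0167). The mean log2 level of 86 ribosomal protein genes, relative to each gene's mean, lay between -0.37 and 0.70 in the KI shams, and between -0.49 and -0.19 in KI 3 Class V. In a fit that also held this score, the change of Dcx was 0.25 (edgeR adjusted p = 0.414).

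Neurod1 stood at 12.9 to 27.1 CPM in the KA shams, with a median of 18.1 CPM. It stood at 14.5, 20.8 and 6.26 CPM in KA 3 Class V. It stood at 16.9, 19.3, 13.7 and 28.7 CPM in the KI shams and at 31.1, 23.1, 27.4 and 20.6 CPM in KI 3 Class V. KA 3 Class V 3 was the lowest library, as it was for Dcx, and KI 3 Class V 1 the highest. The log2 change was -0.50 ± 0.30 in KA (SE, edgeR adjusted p = 0.622) and 0.38 ± 0.30 in KI (edgeR adjusted p = 0.367). Without KA 3 Class V 3 the KA values were -0.16 for Neurod1 and -0.083 for Dcx, and without KA 3 Class V 2 they were -0.92 and -0.58. The KI value of Neurod1 was 0.24 without KI sham 3 and 0.59 without KI sham 4.

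The log2 change of Igfbpl1 was smaller than its SE in both models, with 0.18 ± 0.24 in KA (SE, edgeR adjusted p = 0.852) and 0.23 ± 0.25 in KI (edgeR adjusted p = 0.512). The KI value was 0.054 without KI sham 3 and 0.44 without KI sham 4, and the KA value was -0.13 without KA 3 Class V 2. Over the 18 libraries its level ran from 3.02 CPM in KI sham 3 to 7.07 CPM in KI sham 4, and the groups overlapped in both models.

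Of the SOX factors, Sox11 stood at 5.66 to 9.86 CPM in the KA shams, with a median of 7.03 CPM. In KA 3 Class V it stood at 6.94, 12.6 and 41.8 CPM. The KI shams held 2.66, 8.45, 6.76 and 10.1 CPM, and the KI 3 Class V libraries 9.04, 7.19, 9.66 and 10.4 CPM. One library, KA 3 Class V 3, stood far above the other 17, and KI sham 1 stood below them. The log2 change in KA was 1.42 ± 0.39 (SE, edgeR adjusted p = 0.145). It was 0.35 without KA 3 Class V 3 (edgeR adjusted p = 0.947) and 1.83 without KA 3 Class V 1 (edgeR adjusted p = 0.0391). Over all KA libraries, DESeq2 called it (adjusted p = 0.0359) and limma-voom did not. In KI the change was 0.37 ± 0.42 (edgeR adjusted p = 0.531), and it was 0.11 without KI sham 1 and 0.57 without KI sham 4.

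Sox4 stood at 43.7 to 60.9 CPM in the KA shams, with a median of 54.4 CPM. In KA 3 Class V it stood at 52.1, 57.5 and 50.8 CPM. The KI shams held 76.4, 55.3, 53.5 and 76.2 CPM, and the KI 3 Class V libraries 53.3, 43.7, 50.2 and 48.8 CPM. Every KI 3 Class V library lay below every KI sham, a separation seen in the lower direction for 8.07% of all genes, though the gap between the nearest libraries was small. Sox4 fell by 0.41 ± 0.13 on the log2 scale in KI (SE, edgeR adjusted p = 0.0487). In KA its change was -0.00 ± 0.12 (edgeR adjusted p = 0.996).

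The call of Sox4 in KI rested on small margins. KI sham 1 and 4 were the highest libraries, and without both the change was -0.19 (edgeR adjusted p = 0.220). This pair was chosen after the data were seen, and leaving out the highest shams could only shrink the fall. DESeq2 called Sox4 (adjusted p = 0.0168) and limma-voom gave -0.17 (adjusted p = 0.0926). Of the 18 fits that each left out 1 library, 10 lost the call, with changes of -0.50 to -0.33 and adjusted p up to 0.106. The 10 libraries were KA sham 3, KA 3 Class V 1 and 2, KI sham 1, 2 and 3, and all 4 of KI 3 Class V. The number of all genes called in KI also changed with single libraries, from 1332 to 9 without KI 3 Class V 1, 2 or 3 and to 4297 without KI sham 4. The difference between the shams was -0.28 ± 0.11 for Sox4 (KA sham minus KI sham, edgeR adjusted p = 0.564). Oligodendrocyte precursors are among the cells that express Sox4. Of 11 of their markers 4 were called lower in KI, where 5.25% of all genes were, and none was at 0. The change was negative for 8 and positive for 3, Pdgfra at 0.24, Cspg4 at 0.14 and Vcan at 0.05. The markers summed to 752 to 850 CPM in KI 3 Class V against 875 to 1165 CPM in the KI shams. Their part in the result was not tested.

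Stmn1 stood at 254 to 444 CPM in the KA shams, with a median of 358 CPM. It stood at 326, 246 and 205 CPM in KA 3 Class V. It stood at 494, 316, 271 and 233 CPM in the KI shams and at 192, 273, 196 and 242 CPM in KI 3 Class V. In each model 2 libraries of the group 3 Class V lay below every sham of that model, and its others lay within the sham range, so the groups overlapped. The log2 change was -0.36 ± 0.22 in KA (SE, edgeR adjusted p = 0.626) and -0.54 ± 0.23 in KI (edgeR adjusted p = 0.105). The KI value was -0.70 without KI sham 4 (edgeR adjusted p = 0.0321) and -0.28 without KI sham 1 (edgeR adjusted p = 0.363). It was -0.17 in the fit with the ribosomal protein score (edgeR adjusted p = 0.677), and limma-voom called it over all libraries (adjusted p = 0.00565). In KA it ran from -0.57 without KA 3 Class V 1 to -0.23 without KA 3 Class V 3.

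The number of the 8 genes called depended on the method as it did for all genes. In KA, 0 were called by edgeR and 0 by limma-voom, which called 5.44% of all genes, and DESeq2 called Sox11 alone, with 1.76% of all genes. At an unadjusted edgeR p under 0.05 there was 1 gene of 8 in KA, Sox11, against 9.93% of all genes, and there were 3 in KI, Dcx, Sox4 and Stmn1, against 35.4%. In KI, DESeq2 called 2 of the 8, with 20.4% of all genes. Limma-voom called 4, Dcx, Neurod1, Stmn1 and Mki67, with 55.2% of all genes.

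The difference between the models was tested as the KA change minus the KI change. By edgeR 0 of the 8 genes were called, where 3.80% of all genes were. At an unadjusted p under 0.05 there were 2, Dcx and Sox4, against 20.5% of all genes. DESeq2 called 0 and limma-voom called 2, Dcx and Neurod1, against 8.09% and 35.8% of all genes. The difference was -0.83 ± 0.29 for Dcx (SE, edgeR adjusted p = 0.116) and -0.88 ± 0.43 for Neurod1 (edgeR adjusted p = 0.256). Both genes had a negative change in KA and a positive one in KI. The difference was 1.05 ± 0.58 for Sox11 (edgeR adjusted p = 0.321) and 0.41 ± 0.18 for Sox4 (edgeR adjusted p = 0.201). Without KI sham 4 Dcx was called, at -1.0 (edgeR adjusted p = 0.0408), and without KA 3 Class V 3 the Sox11 difference was -0.01.

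The shams of the models were compared as the starting level of each. By edgeR 0 of the 8 genes were called, where 0.00750% of all genes were. At an unadjusted p under 0.05 there was 1, Sox4, against 8.63% of all genes. Limma-voom called 0, against 3.08% of all genes. DESeq2 gave no adjusted p for 6 of the 8 genes, and of those with one, Sox4 and Stmn1, it called neither, against 0.151% of the 5315 genes that had one. The groups overlapped for all 8 genes, and 0.660% of all genes did not overlap. The model, its surgery and any difference in handling cannot be told apart here.

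**Figure D3:**
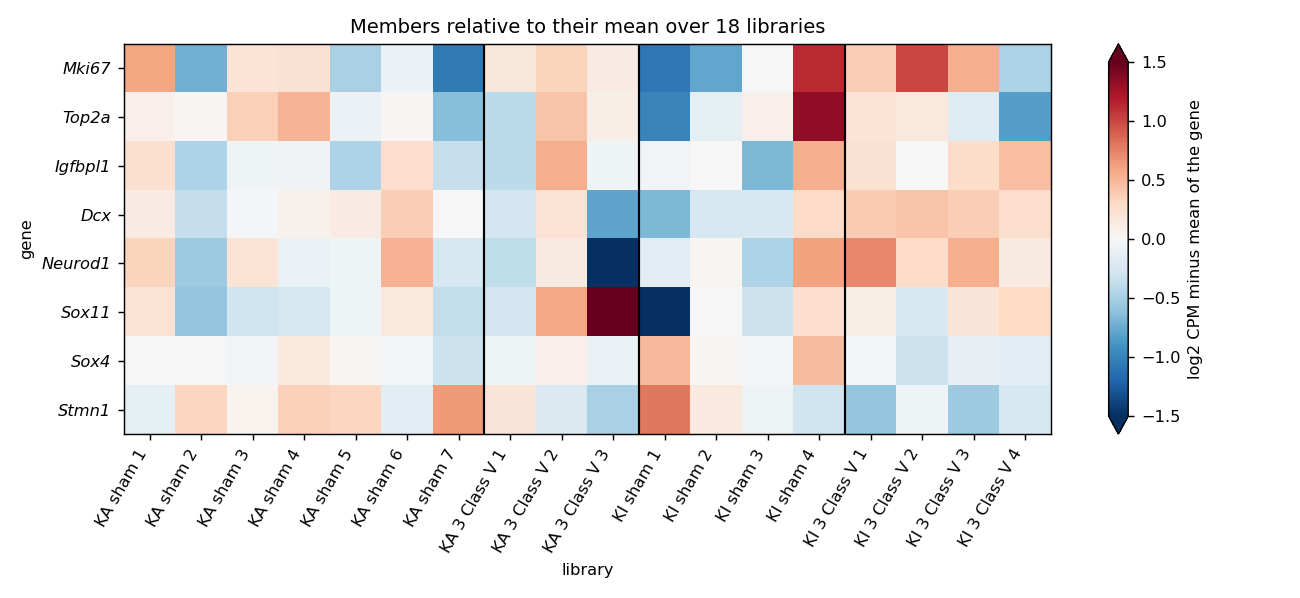
Log2 CPM of each gene minus its mean over the 18 libraries (colour), with genes in rows and libraries in columns by group. KI sham 1 and KI sham 4 stand at opposite ends for Mki67 and Top2a, and KA 3 Class V 3 is high for Sox11 and low for Neurod1 and Dcx.

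The genes were then compared with each other over the 18 libraries, as log2 CPM with and without the group means subtracted, which gives 28 pairs. With group means subtracted, 8 pairs had an adjusted permutation p under 0.05, 5 of them positive. Without subtraction there were 4. The permutations within groups made no allowance for the 4 means subtracted, so those p-values are too small. Pairs near 0.05 may therefore not hold. Libraries differ in depth, composition and dissected cells, which all pairs share. How many pairs of other genes would pass was not counted, so these numbers show nothing particular to the set.

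Dcx and Neurod1 varied together within groups, with Pearson r = 0.841 (adjusted permutation p = 0.000280) and Spearman rho = 0.777 (adjusted permutation p = 0.00271). The r was 0.754 without the 2 libraries farthest from the median of Dcx. Pooled over groups r was 0.841 (adjusted permutation p = 0.000840) and rho 0.843 (adjusted permutation p = 0.000840). For Mki67 and Top2a within groups, r was 0.854 (adjusted permutation p = 0.000280) and rho 0.792 (adjusted permutation p = 0.00271). The r was 0.744 without the 2 farthest libraries, and the pooled values were r = 0.724 (adjusted permutation p = 0.00551) and rho = 0.678 (adjusted permutation p = 0.0159). The values within groups describe how libraries of 1 group varied, not a difference between groups.

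Stmn1 had negative relations. With Sox11 within groups, r was -0.768 (adjusted permutation p = 0.00149), -0.699 without the 2 farthest libraries, and rho was -0.773 (adjusted permutation p = 0.00271). Pooled, r was -0.707 (adjusted permutation p = 0.00406). Its r with Mki67 was -0.613 within groups (adjusted permutation p = 0.0316) and -0.680 pooled (adjusted permutation p = 0.0113). With Top2a it was -0.660 within groups (adjusted permutation p = 0.0184) and -0.426 pooled. Without the 2 farthest libraries the values within groups were -0.420 for Mki67 and -0.426 for Top2a, with no test. The rho of both had an adjusted permutation p of 0.132 within groups. Neurod1 and Igfbpl1 had r = 0.653 within groups (adjusted permutation p = 0.0184), 0.690 without the 2 farthest libraries, and rho = 0.622 (adjusted permutation p = 0.0464), with r = 0.580 pooled (adjusted permutation p = 0.0536). The remaining pairs under 0.05 were Dcx with Top2a (r = 0.577) and Dcx with Mki67 (r = 0.576), each within groups with an adjusted permutation p of 0.0442. Without the 2 farthest libraries they were 0.523 and 0.498, the rho were 0.496 and 0.610, and the pooled r were 0.328 and 0.512, neither of which passed.

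The set of related pairs changed with single libraries. Without KA 3 Class V 3, in which Sox11 was highest and Neurod1 lowest, 18 of the 28 pairs within groups had an adjusted permutation p under 0.05, and 15 pooled. The r of Sox11 with Neurod1 was -0.169 within groups over all libraries and 0.569 without that library (adjusted permutation p = 0.0299). The r of Sox11 with Dcx without it was 0.816 (adjusted permutation p = 0.000420). Without KI sham 4 there were 3 pairs within groups, and without KA sham 1 or KA 3 Class V 2 there were 5. The plots of 3 pairs show where these libraries lie.

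**Figure D4:**
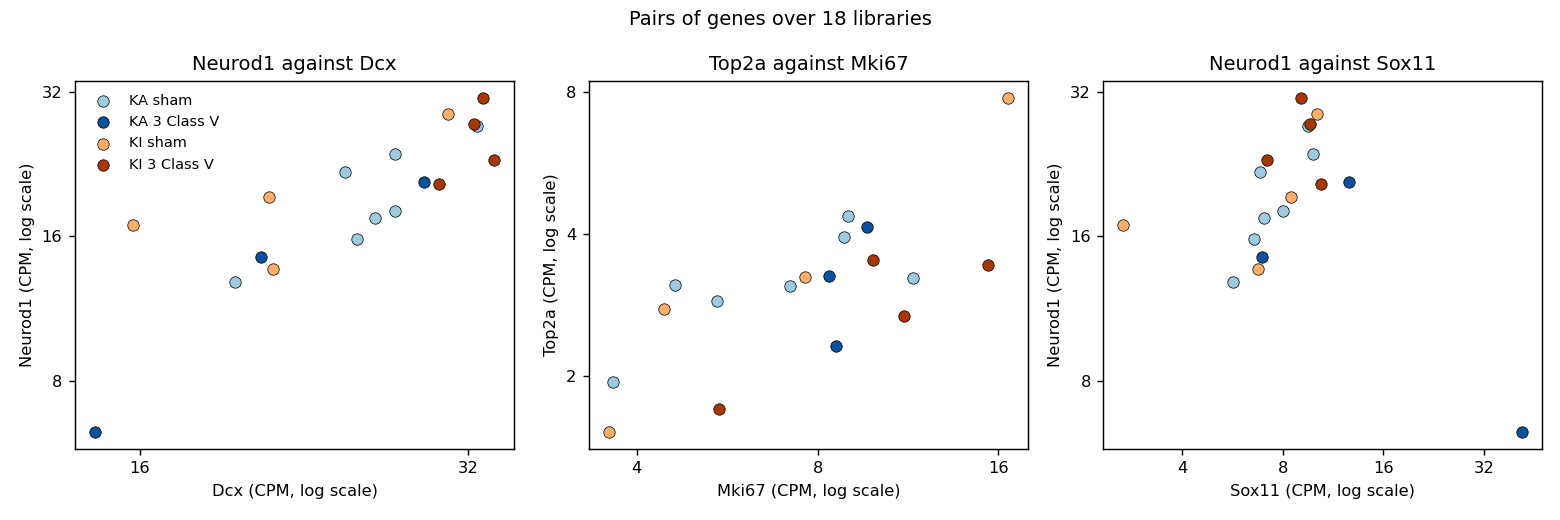
CPM of Neurod1 against Dcx, Top2a against Mki67 and Neurod1 against Sox11 (log axes), 1 point per library, coloured by group. In the Sox11 plot the KA 3 Class V library at 41.8 CPM of Sox11 and 6.26 CPM of Neurod1 lies apart from the rising line of the others.

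The tested genes outside the set whose levels followed Dcx most closely within groups, among 11412 genes with a mean log2 CPM of at least 1, were Fam13a (r = 0.932), Fstl5 (0.931), Mycl (0.923), Arhgap20 (0.914), Rps6ka5 (0.913) and Clasp2 (0.913), the last a microtubule-binding protein. For Top2a they were Tmpo (0.895), Klf3 (0.885), Vim (0.885), Nek2 (0.880), Osbpl11 (0.876) and Ticam2 (0.876). Tmpo encodes a protein of the nuclear lamina, and Nek2 a kinase of the centrosome in dividing cells. For Sox11, an anchor chosen after its values were seen, they were Lox (0.944), Ippk (0.940), Gpatch2l (0.938), Egr3 (0.924), Rdh10 (0.905) and Arhgef7 (0.887). Egr3 is a transcription factor induced by neuronal activity. These values describe 18 libraries and carry no test.

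The other genes of the lineage were counted along its stages, from lists of genes known for each. In KA, edgeR called 0 of 16 genes of radial glia-like stem cells, 0 of 9 of intermediate progenitors, 0 of 26 other genes of neuroblasts and immature neurons, 0 of 33 other proliferation genes and 0 of 21 signals of the neurogenic niche. Of all genes, edgeR called 0.172%. The counts at an unadjusted p under 0.05 were 3, 4, 6, 1 and 2 in the same order, against 9.93% of all genes. DESeq2 called 2, 0, 2, 0 and 0 of them, against 1.76% of all genes, and limma-voom 3, 1, 4, 0 and 2, against 5.44%. The medians of the log2 change lay between -0.07 and 0.14.

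In KI, 6 of 33 other proliferation genes fell and none rose, where 9.99% of all genes were called. A negative change was seen for 30 of the 33, with a median log2 change of -0.49 against -0.04 over all genes. The 6 included 3 subunits of the MCM helicase, which opens DNA for replication. Its other listed subunits were not called, with Mcm2 at -0.50, Mcm7 at -0.48 and Mcm4 on the other side of 0, at 0.36. Mcm6 fell by 0.85 ± 0.19 (SE, edgeR adjusted p = 0.0274), from 8.45 ± 2.57 CPM (SD, n = 4) to 4.71 ± 0.536 CPM (n = 4). Mcm3 fell by 1.10 ± 0.30 (edgeR adjusted p = 0.0367) and Mcm5 fell by 1.29 ± 0.39 (edgeR adjusted p = 0.0458). Tk1, the thymidine kinase of S phase, fell by 0.96 ± 0.23 (edgeR adjusted p = 0.0287), and Hmgb2, a chromatin protein of dividing cells, fell by 0.81 ± 0.23 (edgeR adjusted p = 0.0393). Birc5, which encodes the mitotic protein survivin and is named after its value was seen, fell by 0.80 ± 0.25 (edgeR adjusted p = 0.0487). Mki67, by contrast, had a positive change that did not pass the test.

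These calls changed with single libraries, as did the number of all genes called. In the KI shams Mcm3 ranged from 2.59 to 10.2 CPM and Mcm5 from 1.42 to 8.65 CPM. Without KI sham 3 none of the 33 were called, where 133 of all genes were. Without KI sham 4 there were 10, where 4297 of all genes were called. Without KI sham 3 the changes were -0.65 for Mcm6, -0.63 for Mcm3, -0.72 for Mcm5 and -0.75 for Tk1. None were called without KI 3 Class V 1, 2 or 3, where 9 of all genes were each time. Without KI 3 Class V 4 there were 2, where 527 of all genes were called. In those 4 fits the changes stayed near the values above, at -0.93 to -0.80 for Mcm6, -1.19 to -1.07 for Mcm3, -1.33 to -1.28 for Mcm5 and -1.0 to -0.95 for Tk1. Without KI sham 3 and 4 together the changes were -0.46 for Mcm6, -0.38 for Mcm3 and -0.24 for Mcm5. In that fit 1 gene of the list was called, Kif20a, which was not among the 6, where 3740 of all genes were called. Without KI sham 1 and 4 there were 5, where 2156 of all genes were called. DESeq2 called 11 and limma-voom 17, against 20.4% and 55.2% of all genes. Markers of microglia, a cell type that can divide, summed to 517 CPM in KI sham 1 and 807 to 1012 CPM in the other KI shams. They summed to 418 to 435 CPM in KI 3 Class V. EdgeR called 7 of 11 markers lower in KI, where 5.25% of all genes were, and none was at 0. In KA they summed to 436 to 979 CPM in the shams and to 860 to 1208 CPM in 3 Class V. There edgeR called 0 of 11, where 0.172% of all genes were called. Their part in the result was not tested. When the fit also held the ribosomal protein score, 0 of the 33 genes were called, where 109 of all genes were. The changes in that fit were -0.92 for Mcm6, -1.07 for Mcm3, -1.33 for Mcm5, -0.71 for Tk1 and -0.50 for Hmgb2.

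Among 26 other genes of neuroblasts and immature neurons, 3 fell and 1 rose in KI, where 9.99% of all genes were called. Marcksl1, a regulator of the actin cortex, fell by 0.84 ± 0.14 (SE, edgeR adjusted p = 0.0166), from 441 to 483 CPM in the KI shams to 246 to 287 CPM in KI 3 Class V. Fxyd7, a subunit that modulates the sodium pump, fell by 1.16 ± 0.30 (edgeR adjusted p = 0.0333), and Nnat (neuronatin) fell by 0.68 ± 0.20 (edgeR adjusted p = 0.0452). Elavl2, a neuronal RNA-binding protein, rose by 0.51 ± 0.16 (edgeR adjusted p = 0.0486). The median of the list was 0.13, with 16 genes positive and 10 negative. DESeq2 called 6 and limma-voom 15, against 20.4% and 55.2% of all genes. The list's count of called genes was 9 without KI sham 4, where 4297 of all genes were called. It was 0 without KI 3 Class V 1 or 3, where 9 of all genes were called. It was 1 or 2 without any of KA sham 3, 5 or 7 or KA 3 Class V 1. It was also 1 or 2 without any of KI sham 1, 2 or 3 or KI 3 Class V 2 or 4. In the fits with 1 or 2, 9 to 1065 of all genes were called. In KA, Fxyd7 had the smallest p of the list, with a change of -1.39 ± 0.31 (edgeR adjusted p = 0.0842), followed by Marcksl1 at -0.56 ± 0.14 (edgeR adjusted p = 0.106). Both were called in KA without KA sham 1, and Fxyd7 without KI sham 1.

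**Figure D5:**
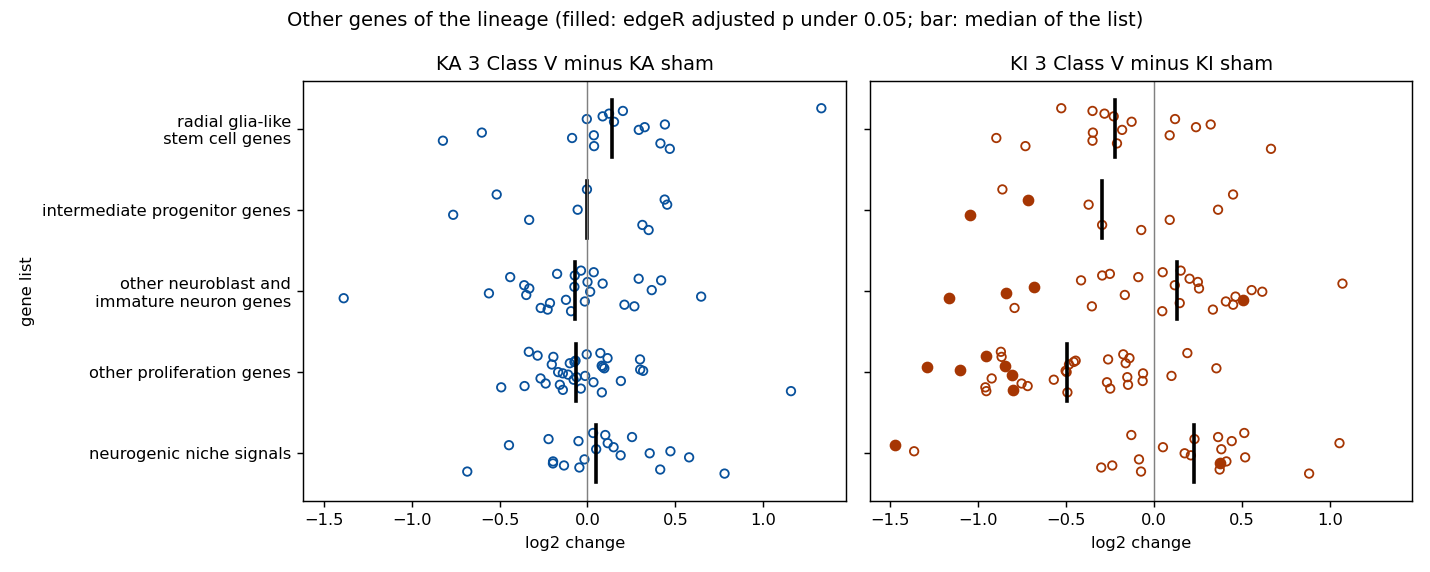
Log2 change (x axis) of the genes of 5 lists of the lineage (rows) in KA and in KI, 1 point per gene, filled where edgeR called it, with a bar at the median of the list. No point is filled in KA, and the proliferation genes in KI have the lowest median, -0.49.

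Of 9 intermediate progenitor genes, 2 fell in KI, against 9.99% of all genes called, and the median of the list was -0.29. The Notch ligand Dll3 fell by 1.05 ± 0.27 (SE, edgeR adjusted p = 0.0333) from a mean of 0.978 CPM, and Mfng, which adds sugars to Notch receptors, fell by 0.72 ± 0.21 (edgeR adjusted p = 0.0449), from 13 to 14.8 CPM in the KI shams to 7.64 to 9.07 CPM. The count was 0 without any of KI sham 2 or 3 and KI 3 Class V 1, 2, 3 or 4, where 9 to 527 of all genes were called. It was 1 without any of KA sham 3, KA 3 Class V 1, 2 or 3 and KI sham 1. In the fits with 1, 838 to 1092 of all genes were called. None of the 16 radial glia-like genes was called in KI by edgeR, with a median of -0.22, 2 at an unadjusted p under 0.05, 2 called by DESeq2 and 7 by limma-voom. Over all genes these shares were 35.4%, 20.4% and 55.2%. Hopx had the smallest p there, at -0.90 (edgeR adjusted p = 0.0585), then Fabp7 at -0.73 (edgeR adjusted p = 0.0771). EdgeR called 5 of this list without KI sham 4, where 4297 of all genes were called. It called 1 or 2 without any of KA sham 1, 2 or 6, where 1658 to 2445 of all genes were called. In KA, Vim, the intermediate filament vimentin of stem cells and reactive astrocytes, had the smallest p of the list, with a log2 change of 1.33 ± 0.32 (edgeR adjusted p = 0.101), and it was called without KI sham 1 (edgeR adjusted p = 0.0473) or KI sham 4 (edgeR adjusted p = 0.0311).

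Of 21 niche signals, with a median of 0.23 in KI, 1 fell and 1 rose there, a share near the 9.99% of all genes called. Ntf3, the neurotrophin-3 of dentate granule cells, fell by 1.48 ± 0.30 (SE, edgeR adjusted p = 0.0221), from 5.60 to 13.6 CPM in the KI shams to 2.81 to 3.54 CPM in KI 3 Class V. Dab1, which transmits the reelin signal that guides young neurons, rose by 0.38 ± 0.11 (edgeR adjusted p = 0.0458). Igf1 had the next smallest p in KI, at -1.36 (edgeR adjusted p = 0.0625). Its change was -0.72 without KI sham 4. DESeq2 called 6 of the list and limma-voom 9, against 20.4% and 55.2% of all genes. The count of called genes was 0 without any of KI 3 Class V 1, 2 or 3, where 9 of all genes were called. It was 1 without any of KA sham 3, 5 or 6 or any KA 3 Class V library. It was also 1 without any of KI sham 1, 2 or 3 or KI 3 Class V 4. In the fits with 1, 133 to 1658 of all genes were called. In KA the smallest p-values of the list belonged to Bmp4 at -0.68, Bdnf at 0.78 and Fgf2 at 0.58, with edgeR adjusted p from 0.360 to 0.587. The change of Bdnf was 0.17 without KA 3 Class V 3 (edgeR adjusted p = 0.971), the library in which Sox11 was highest.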

How the data were processed

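The authors deposited a table of raw read counts by gene symbol, with 18 libraries as columns, and 0 columns were left without a sample. Per the labels' protocols, total RNA from flash-frozen tissue was made into NEBNext Ultra II libraries and read single-end over 110 bases on a NovaSeq. Polyadenylated RNA is named as the molecule. The submitters' processing notes name FastQC, Trimmomatic, HISAT2, featureCounts, DESeq2 and the rat build rn6. Tool versions, the gene annotation, the strand setting and how multiply mapped reads were handled are not given in the sources consulted, so reads of overlapping genes may have been shared. Promoters came from RefSeq tables for GRCr8 and were joined by symbol only.

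The genes and lists were chosen with earlier results of these data known. Genes were named where they belonged to the set of 10. Of each list, up to 3 genes per model with the smallest p and up to 5 called ones were named, and the 6 genes most like Dcx and Top2a in pattern. The tests used edgeR 4.0.16 (R 4.3.3) on the counts, with TMM factors, filterByExpr, a mean for each group and robust quasi-likelihood F tests, two-sided. All 18 libraries entered 1 fit with 14 residual degrees of freedom. The SE of a log2 change is its size over the root of F. Log2 CPM used a prior count of 2. Correlations used 100000 permutations, two-sided, with Benjamini-Hochberg adjustment over 28 pairs. Alternatives were DESeq2 1.42.0, limma-voom (limma 3.58.1) with quality weights, other scaling factors and filters, each pair of groups alone, a replicate block, a covariate and fits without single libraries. The steps were tested on simulated counts.

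Within groups, all 36 pairs of libraries differed by more than counting error (chi-square over its degrees of freedom 19.8 to 583), and each library was kept as a replicate. The labels do not say of each library that it came from its own animal, so the p-values may measure a spread that is partly technical.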

Additional observations from a re-analysis of the deposited data

Results flagged for a closer look

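For 2 genes of the lineage lists the KA change and the KI change differed by a test of the difference itself. They were 1 of 16 radial glia-like genes and 1 of 9 intermediate progenitor genes. Of the 26, 33 and 21 genes of the other lists 0 were called, where 3.80% of all genes were. The lists as a whole thus held no excess of such genes. Vim, the intermediate filament of stem cells and reactive astrocytes, had a KA change minus KI change of 1.86 on the log2 scale (edgeR adjusted p = 0.0392). Vim stood at 156 ± 46.1 CPM in KA sham (SD, n = 7), 393 ± 108 CPM in KA 3 Class V (n = 3), 209 ± 132 CPM in KI sham (n = 4) and 145 ± 20.2 CPM in KI 3 Class V (n = 4). The 18 fits that left out 1 library gave values of 1.37 to 2.07, and 10 of them lost the call, with adjusted p up to 0.129. These were the fits without KA sham 1, 3 or 5, KA 3 Class V 2 or 3, KI sham 3 or any KI 3 Class V library. Further, the difference was 1.05 without KI sham 3 and 4 (edgeR adjusted p = 0.0940). The highest Vim level among the KI shams was 398 CPM.

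Mfng, a modifier of Notch receptors, had a KA change minus KI change of 1.16 (edgeR adjusted p = 0.0373), with 11.2 ± 3.57 CPM in KA sham (SD, n = 7), 15.1 ± 2.51 CPM in KA 3 Class V (n = 3), 13.8 ± 0.765 CPM in KI sham (n = 4) and 8.42 ± 0.748 CPM in KI 3 Class V (n = 4). The 18 fits that left out 1 library gave values of 1.03 to 1.30, and 12 of them lost the call, with adjusted p up to 0.103. These were the fits without KA sham 1, 3, 5 or 6, KA 3 Class V 2 or 3, KI sham 2 or 3 or any KI 3 Class V library. Markers of microglia and of other cells moved with the groups as given above, and their part in either difference was not tested. Of 24 sets of 1 gene in 1 group of at least 4 libraries, none held a library that lay apart from the rest by Dixon's test at the 95% level, where chance gives about 1 in 20. KA 3 Class V, with 3 libraries, was left out of that test, and so was its Sox11 value of 41.8 CPM.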

How the results depend on the processing

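The count of the 8 genes called in KI was 1 in the fit reported, 2 with DESeq2, 4 with limma-voom, 4 without KI sham 3 and 4, and 0 with only the 2 groups compared, with the ribosomal protein score in the fit, without KI sham 1 and 4, or without the 3 libraries rich in ribosomal RNA-like reads. The last 2 settings were chosen after the data were seen. Leaving out 1 library gave 0 to 3. Over all genes the KI count was 1332, and it was 2864 with DESeq2, 7359 with limma-voom, 759 with only the 2 groups, 109 with the ribosomal protein score, 3740 without KI sham 3 and 4, 2156 without KI sham 1 and 4, 17 without the libraries rich in ribosomal RNA-like reads and 9 to 4297 with 1 library left out. In KI the called proliferation genes numbered 6, 2 with only the 2 groups and 0 with the ribosomal protein score or without the libraries rich in ribosomal RNA-like reads, with changes of -0.92 to -0.84 for Mcm6 and -1.09 to -1.07 for Mcm3 with the 2 groups or the score. In KA the count of the 8 genes was 0, 1 with DESeq2 and 0 to 1 with 1 library left out. For the KA change minus the KI change it was 0, 2 with limma-voom, 1 without KI sham 3 and 4, and 0 to 1 with 1 library left out. For the shams it was 0 under every setting run, though DESeq2 could call only 2 of the 8 there. The related pairs numbered 4 pooled (3 to 15 with 1 library left out) and 8 within groups (3 to 18), with 6 under RLE factors. The KA change minus the KI change was -1.11 to -0.62 for Dcx and -1.29 to -0.53 for Neurod1 with 1 library left out, and Mki67 in KA was 0.19 to 0.45. With the replicate number as a block, 0 of the 8 genes were called in KI and Sox4 stood at -0.40 (edgeR adjusted p = 0.155). The blocked fit called none of the 8 in KA or between the models and no gene of the 5 lists in KI, where it called 0 of all genes, and it put Top2a in KA at -0.12. The calls of Vim and Mfng between the models were lost with the block (edgeR adjusted p = 0.292 and 0.0823). Same-numbered libraries did not deviate together (r from -0.154 to 0.009 in KA and from -0.166 to -0.068 in KI), so no pairing by number was seen. Correlations over so few libraries cannot decide whether the numbers pair the samples.

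Changes of direction were confined to values that were not called in the fit reported, among the settings run. Sox4 in KA was 0.011 with limma-voom, 0.0021 with only the 2 groups, 0.0023 without ribosomal RNA-like genes and 0.010 without the libraries rich in them, and -0.065 to 0.028 with 1 library left out. Top2a in KA was -0.091 with limma-voom, -0.090 with the ribosomal protein score, -0.0043 with upper quartile factors and -0.21 to 0.19 with 1 library left out. Igfbpl1 in KA was -0.13 to 0.37 with 1 library left out. With the ribosomal protein score in KI, Neurod1 was -0.089, Igfbpl1 -0.044 and Mki67 -0.14. Yet limma-voom called Neurod1 in KI at 0.61 and Mki67 at 0.89. EdgeR called Mki67 without KI sham 3 and 4, the KI shams in which it was highest. Top2a in KI was 0.37 without KI sham 3 and 4 and -0.71 to 0.13 with 1 library left out. Sox11 in the KA change minus the KI change was -0.012 to 1.47 with 1 library left out. The cause was not tested. All 8 genes passed the filter, so no test of genes under it was run, and with 8 genes the pairs number 28. The genes counted least, Top2a and Igfbpl1, have SEs of 0.24 to 0.38, and Mki67 and Sox11 have larger ones, of 0.39 to 0.43. Changes of that size were not detectable for these genes.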
